A study of Mus musculus with 16 samples.

Results

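Plasminogen activators cut plasminogen into plasmin, a protease that dissolves fibrin and opens the matrix around migrating cells. Plau (urokinase) and Plat (tissue-type activator) are the activators, Plaur is the surface receptor that holds urokinase at the cell membrane, and Serpinb2 and Serpine2 are serpins, protein inhibitors that trap such proteases. Coagulation has its own pair of surface regulators. F3 encodes tissue factor, the membrane receptor of factor VII that starts clotting, and Thbd encodes thrombomodulin, which binds thrombin and turns it towards activation of protein C. In smooth muscle of the vessel wall, plasminogen activators, their receptor and tissue factor are known as genes that respond to growth factors. These 7 genes were followed here in cultured mouse aortic smooth muscle cells with and without Hey2. Members were probe sets whose only gene symbol in the array's annotation was one of the 7 names, and 8 such probe sets were found among the 45101 of the array. They measured 6 of the 7 genes, and Serpine2 was not analysed here.

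The cells came from aortas freed of adventitia, were grown from minced and digested tissue on fibronectin, and had been stained for calponin and alpha actin as a check of purity. Wild-type and Hey2 knockout cells, both of a mixed C57BL/6 and 129SvJ background and at passage 10-20, were starved in 0.4% FCS for 48 h. They were then given human PDGF-BB, a growth factor that drives smooth muscle cells to move and divide, at 5 ng/ml. Cultures were harvested at 0, 15, 30, 60, 120, 180, 240 and 480 min, and the RNA of each went on 1 Affymetrix array per genotype and time, 8 for wild-type and 8 for knockout cells. The age of the animals, the number of isolates behind each genotype and the kind of deletion are not stated in the labels. The arrays of a genotype differ in time and are not replicates, so p-values below measure only the spread between these arrays, and cultures of 1 isolate would share whatever sets that isolate apart. With 1 array per point, precision is limited by how many arrays there are.

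Before scaling, the 2% trimmed mean of the deposited intensities ran from 81, on wild type 30 min, to 343 across arrays. The next lowest was 164, and signals are given below after quantile normalization. Tests were made on log2(signal + 4.856), which understates the change of dim genes, for 14299 genes whose signal passed 16 on at least 3 arrays. A gene was called at a limma adjusted p under 0.05. The wild-type arrays labelled 60 and 480 min stood apart. Across genes, which are not independent replicates, the array labelled wild type 60 min correlated most closely with the knockout array of 480 min (r = 0.57, against -0.33 with knockout 60 min). For the one labelled wild type 480 min the closest was knockout 60 min (r = 0.46, against -0.38 with knockout 480 min). At the other 6 times the arrays of the same label correlated at 0.38 to 0.52. Labels were kept as given, and results are also given for the 12 arrays without 60 and 480 min. Hey2 itself had a signal of 14.0 to 113 in the wild type and 23.3 to 63.3 in the knockout (difference -0.19, SE 0.32, limma adjusted p = 0.696). That average covers opposite differences, lower in the knockout at 0 to 30 min (-1.14, SE 0.25, limma adjusted p = 0.0041) and higher at 120 to 240 min (0.80, SE 0.25, limma adjusted p = 0.0308), as the wild-type signal fell by 2.36 on the log2 scale between those times (SE 0.25, limma adjusted p = 1.08e-05) and the knockout changed by -0.43 (SE 0.25, limma adjusted p = 0.256). The labels do not state where its probes lie relative to the deletion, so these values do not check the genotypes.

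Plaur, Serpinb2 and F3 were the members that rose after PDGF-BB in both genotypes, so their promoters are shown here with the values that follow. The sequences are the 250 bases before the start site from RefSeq, build GRCm38.p6, all on the + strand, and the table used held such a sequence for 4 of the 7 genes, not for Plau, Plat and Thbd. Capitals mark each match to TGANTCA, the core recognised by AP-1, the dimer of Fos and Jun proteins.
Plaur, chr7:24462233-24462482: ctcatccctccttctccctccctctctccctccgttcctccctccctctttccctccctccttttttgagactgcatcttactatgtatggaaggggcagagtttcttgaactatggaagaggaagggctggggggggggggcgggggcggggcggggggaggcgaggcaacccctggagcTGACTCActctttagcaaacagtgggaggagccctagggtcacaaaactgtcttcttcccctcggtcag
Serpinb2, chr1:107511173-107511422: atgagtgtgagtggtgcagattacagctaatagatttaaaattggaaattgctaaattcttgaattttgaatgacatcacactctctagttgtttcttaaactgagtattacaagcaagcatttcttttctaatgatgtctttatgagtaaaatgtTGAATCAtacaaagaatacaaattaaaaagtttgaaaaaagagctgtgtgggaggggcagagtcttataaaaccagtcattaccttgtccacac
F3, chr3:121723287-121723536: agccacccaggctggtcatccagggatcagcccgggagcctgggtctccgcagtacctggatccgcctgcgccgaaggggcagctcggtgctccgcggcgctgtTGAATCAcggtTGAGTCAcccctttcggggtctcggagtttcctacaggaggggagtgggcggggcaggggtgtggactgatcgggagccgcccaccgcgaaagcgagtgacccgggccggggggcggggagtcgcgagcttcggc
Plaur held 1 match, 69 to 63 bases before its start, and Serpinb2 held 1, 94 to 88 bases before. F3 held 2, at 146 to 140 and 135 to 129 bases before its start. Both strands were searched, and TGANTCA is its own reverse complement. Of 32841 promoters of the same length, 6.75% held the motif. A second Serpinb2 start in the table places the same match 181 to 175 bases before it. Other motifs searched were the cAMP response element TGACGTCA (in 1.55% of promoters), the EGR motif GCGNGGGCG (4.7%), the E-box CACGTG (6.02%), the TATA box TATAAA (12.4%), the SP1 motif GGGCGG (32.7%) and the CArG box (1.47%). Plaur had an EGR match 109 to 101 bases before its start that overlaps SP1 matches, Serpinb2 a TATA box 29 to 24 bases before, and Plaur and F3 each had 3 SP1 matches. The Serpine2 promoter, also searched, held no AP-1 match, but it had an EGR match 17 to 9 bases before its start and several SP1 matches. None of the AP-1 matches overlapped another motif searched. A match is a stretch of letters, not a measured binding site.

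**Figure D1:**
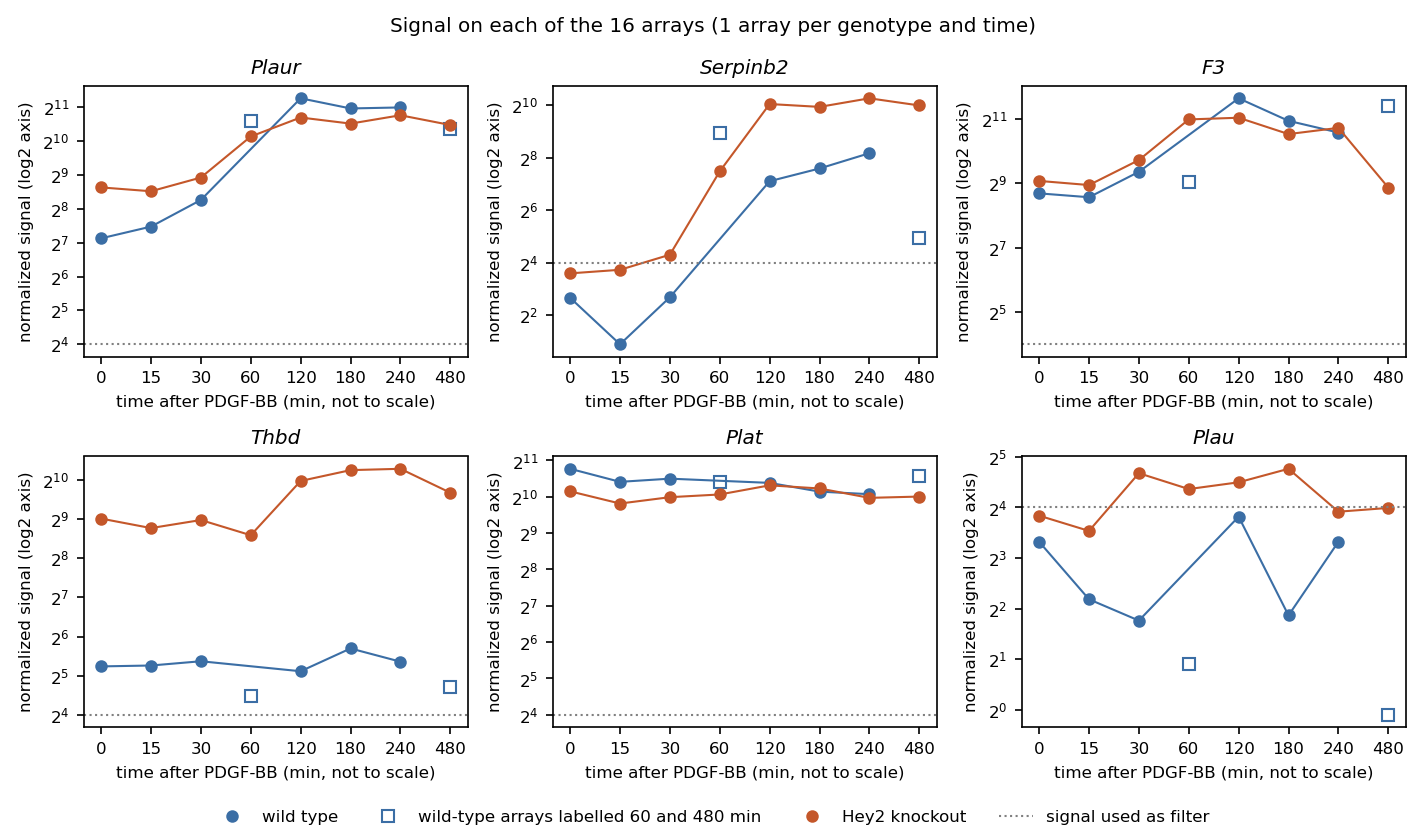
Normalized signal of the 6 measured genes (log2 axis, intensity units) at each labelled time after PDGF-BB, with 1 array per point, wild type in blue and Hey2 knockout in orange. Open squares are the wild-type arrays labelled 60 and 480 min, and the dotted line is the signal of 16 used as the filter. Plaur, Serpinb2 and F3 are higher from 120 to 240 min than at 0 to 30 min in both genotypes, and the 8 knockout points of Thbd lie above the 8 wild-type points.

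The first question was which of these genes changed after PDGF-BB over both genotypes. Plaur and Serpinb2 were called as higher at 120 to 240 min than at 0 min, and F3 was called in addition when the 60 and 480 min arrays were left out. Of the 6 members, 2 were thus called in the fit of 16 arrays, where 10.9% of all genes were called, and 3 in the fit of 12 arrays, where 35.0% were.

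The urokinase receptor Plaur started low in wild-type cells and climbed steeply. Its wild-type signal was 140 at 0 min, 178 at 15 min, 307 at 30 min, 1551 on the array labelled 60 min, 2461 at 120 min, 1999 at 180 min, 2041 at 240 min and 1309 on the array labelled 480 min. In the knockout it was 397, 367, 486, 1126, 1661, 1466, 1739 and 1425 at the same times. Every array from 60 min on lay above every array of 0 to 30 min in both genotypes, and the knockout started higher and peaked lower than the wild type. From 0 min to 120 to 240 min the fitted rise over both genotypes was 2.96 on the log2 scale, or 7.76-fold (SE 0.37, limma adjusted p = 0.00135). Without the 60 and 480 min arrays the same rise had an adjusted p of 6.04e-05 by limma. Leaving out the wild-type 0 min array lowered it to 2.23 and ended the call (limma adjusted p = 0.0518).

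Serpinb2, also known as plasminogen activator inhibitor 2, is an inhibitor of urokinase that is kept largely inside the cell. Wild-type cells had a signal of 6.35, 1.86 and 6.44 at 0, 15 and 30 min, then 495 on the array labelled 60 min, 138, 193 and 289 at 120, 180 and 240 min, and 31.1 on the array labelled 480 min. Knockout cells had 12.1, 13.3 and 19.8 at 0, 15 and 30 min, 179 at 60 min, 1059, 982 and 1232 at 120, 180 and 240 min, and 1020 at 480 min. All wild-type arrays up to 30 min and the knockout arrays of 0 and 15 min lay under the filter of 16, so the size of the rise depends on the offset. Its rise to 120 to 240 min came to 5.09 log2 units (SE 0.86, limma adjusted p = 0.00649, 16 arrays). It was 4.36 to 5.74 over the alternatives tried. Without the wild-type 0 min array it was 5.74 (limma adjusted p = 0.086) and without the knockout 0 min array 4.45 (limma adjusted p = 0.101), so either array alone ended the call.

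Tissue factor, F3, had its highest signal at 120 min in the knockout and in the wild type. Wild-type cells had 413, 380 and 657 at 0, 15 and 30 min, 523 on the array labelled 60 min, 3201, 1970 and 1531 at 120, 180 and 240 min, and 2718 on the array labelled 480 min. The knockout had 540, 494 and 846 at the first 3 times, 2031 at 60 min, 2106, 1481 and 1693 at 120, 180 and 240 min, and 468 at 480 min. At 120 to 240 min all 6 arrays lay above the 6 arrays of 0 to 30 min. The rise from 0 min to 120 to 240 min was 2.02 on the log2 scale, or 4.05-fold, which missed the threshold with 16 arrays (SE 0.59, limma adjusted p = 0.0523). With 12 arrays the same rise had an SE of 0.18 and was called (limma adjusted p = 1.35e-05). On the arrays that stood apart, F3 was at 523 in the array labelled wild type 60 min beside 468 in knockout 480 min, and at 2718 in the array labelled wild type 480 min beside 2031 in knockout 60 min.

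The other members gave smaller differences over this window. Thrombomodulin Thbd differed by 0.65 (SE 0.31, limma adjusted p = 0.191), the activator Plat by -0.27 (SE 0.16, limma adjusted p = 0.27) and urokinase, Plau, by 0.15 (SE 0.43, limma adjusted p = 0.855). The median over all genes tested was -0.08. As a measure of RNA quality, the 3' to 5' signal ratio of Actb was 2.75 and 2.89 at 0 min and 1.53 to 2.44 at 120 to 240 min, while that of Gapdh was 3.73 and 3.51 at 0 min and overlapped with 2.44 to 4.64 at 120 to 240 min. The early wild-type 30 min array, with the lowest trimmed mean before scaling, had ratios of 3.88 for Actb and 4.49 for Gapdh. Knockout 15 min had 3.71 and 5.65. The part of RNA quality in these rises was not tested.

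The second comparison asked which members differed between the genotypes over all times. Thbd and Serpinb2 were higher in the knockout and Plat was lower. Plau was also called higher, but its wild-type signal was under the filter on all 8 arrays, so it entered the test only through the knockout arrays and its call is no support. With Plau, 4 of 6 members were called, beside 30.7% of all genes (2370 higher and 2023 lower). Without the 60 and 480 min arrays the same 4 were called, beside 42.5% of all genes. The median difference of all genes was -0.02. Of the calls over all genes 53.9% were higher in the knockout, and with the scaling as deposited 87.8% were.

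Thbd was the member with the widest gap between genotypes. The wild-type signal was 37.7, 38.3, 41.3, 22.4, 34.6, 51.8, 41.0 and 26.0 from 0 to 480 min, above the filter on all arrays but dim. In the knockout it was 517, 437, 504, 385, 1007, 1220, 1249 and 818. The groups did not overlap, and the knockout signal was 11.4 to 31.4 times the wild-type signal of the same time. Among the 6 members only Thbd had no overlap between genotypes, which held for 8.46% of all genes. The fitted difference was 4.11 on the log2 scale, or 17.3-fold, with an SE of 0.19 (limma adjusted p = 9.56e-08). Under the 21 alternatives tried it stayed between 3.48 and 4.63 and was called in each.

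Serpinb2 was higher in the knockout at 7 of 8 times, the exception being 60 min, where the array labelled wild type had 495 and the knockout 179. At 120, 180 and 240 min the knockout signal was 7.69, 5.08 and 4.26 times that of the wild type. The fitted difference of Serpinb2 was 1.73 (SE 0.52, limma adjusted p = 0.0277), and without the 60 and 480 min arrays 1.74 with an SE of 0.25 (limma adjusted p = 1.66e-04). In the fit of 16 arrays it no longer passed when 15, 120, 180 or 240 min was left out (limma adjusted p = 0.0532, 0.0739, 0.0684 and 0.0634).

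Plat, the activator best known for dissolving clots, showed only a small relative difference between the genotypes. Its brighter probe set gave 1748, 1363, 1448, 1357, 1336, 1131, 1077 and 1532 in the wild type and 1137, 901, 1017, 1071, 1275, 1201, 1004 and 1029 in the knockout. The ranges overlapped, and the knockout was lower at 7 of 8 times, the exception being 180 min. The difference was -0.34 (SE 0.10, limma adjusted p = 0.02). Leaving out 0, 15 or 30 min ended the call (limma adjusted p = 0.0587, 0.0571 and 0.0554), and with the scaling as deposited the difference was 0.00 (limma adjusted p = 0.996), where the median of all genes moved to 0.28. A dimmer Plat probe set had 1.56 to 39.8 in wild-type cells and 8.11 to 29.9 in knockout cells, and its difference had the opposite sign to that of the brighter probe set at 30, 60 and 120 min.

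Plau was close to background throughout. The brighter of its probe sets read 10.0, 4.54, 3.39, 1.88, 14.1, 3.64, 10.0 and 0.931 in the wild type, under the filter of 16 on each array. In the knockout it read 14.3, 11.6, 25.6, 20.6, 22.6, 27.2, 15.1 and 15.9, with 4 of 8 arrays above the filter. Its fitted difference of 1.21 (SE 0.27, limma adjusted p = 0.00524) depends on the offset. The other Plau probe set lay under the filter on all 16 arrays, between 0.625 and 15.1, and was higher in the knockout at 7 of 8 times. Plaur (0.20, SE 0.23, limma adjusted p = 0.553) and F3 (-0.04, SE 0.36, limma adjusted p = 0.948) were not called between genotypes over the whole course.

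**Figure D2:**
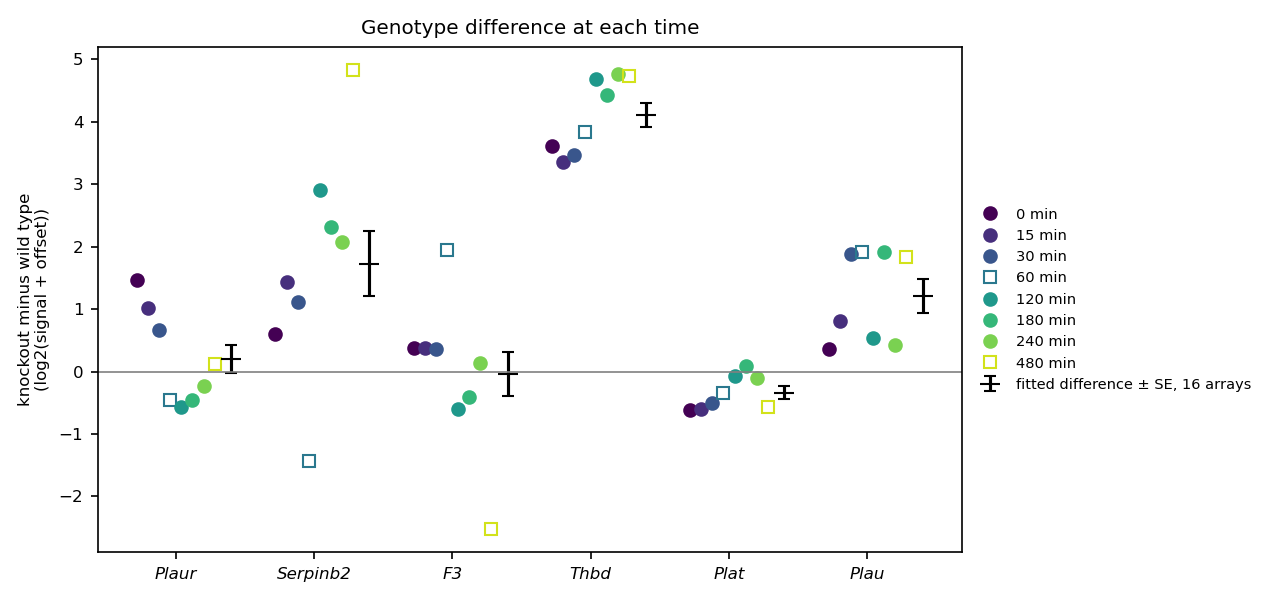
Knockout minus wild-type difference on the log2(signal + 4.856) scale for each measured gene, with 1 point per time from 0 to 480 min in order from left to right and open squares for 60 and 480 min, where the wild-type arrays stood apart. The black mark is the fitted difference over 16 arrays with its SE. All 8 points of Thbd lie at 3.36 or above, those of Plaur run from 1.47 at 0 min to below 0 at 60 to 240 min, and the points of Serpinb2 and F3 at 60 and 480 min lie far from their others.

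Cell type markers moved with genotype beside these differences. The summed signal of 7 smooth muscle markers was 12398 to 16459 in the wild type and 6538 to 9575 in the knockout, with 6 of 7 called lower. That of 6 mesothelial markers was 850 to 1708 in the wild type and 12657 to 14697 in the knockout, with 6 of 6 called higher. In bulk RNA, fewer cells of a type and less RNA per cell cannot be told apart. Thrombomodulin is made by endothelium and is also used as a mesothelial marker, and the part of the mesothelial genes in its difference was not tested. The endothelial genes Pecam1, Cdh5, Tie1 and Vwf were under the filter on all 16 arrays, and the 7 endothelial markers summed to 50.1 to 119 in the wild type and 61.3 to 101 in the knockout. Of 8 macrophage and leukocyte markers 7 had a probe set, Itgam and Tyrobp were under the filter on all arrays, and the 7 summed to 124 to 434 and 132 to 809. Of 6 adventitial fibroblast markers 4 were higher and 1 lower in the knockout, with sums of 1801 to 6748 and 2891 to 5146.

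The third comparison asked whether the genotypes differed in their response, as the mean of 120, 180 and 240 min minus the mean of 0, 15 and 30 min over 12 arrays. In wild-type cells Plaur, Serpinb2 and F3 rose and Plat fell, so that 4 of 6 members were called beside 38.5% of all genes. Knockout cells also had 4 members called, Plaur, Serpinb2, F3 and Thbd, all higher, beside 20.1% of all genes. The difference between those changes was called for Thbd and Plaur, 2 of 6 members, beside 0.791% of all genes.

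Thbd changed by 0.09 in the wild type (SE 0.16, limma adjusted p = 0.684) and by 1.24 in the knockout (SE 0.16, limma adjusted p = 1.18e-04). The change was larger in the knockout by 1.15 (SE 0.22, limma adjusted p = 0.0297). Put in signals, the 3 late wild-type arrays (34.6 to 51.8) overlapped the 3 early ones (37.7 to 41.3), while the late knockout arrays (1007 to 1249) lay above the early ones (437 to 517). Plaur went the other way. It rose by 3.42 in the wild type (SE 0.22, limma adjusted p = 1.22e-07) and by 1.95 in the knockout (SE 0.22, limma adjusted p = 4.14e-05), a difference of -1.46 (SE 0.30, limma adjusted p = 0.0434). At the early times its knockout signal was the higher by 1.05 log2 units (SE 0.22, limma adjusted p = 0.00247), and at the late times the difference was -0.41 (SE 0.22, limma adjusted p = 0.178).

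Both calls were narrow. With the 60 and 480 min arrays added as labelled, as early and late, the differences were 1.09 for Thbd (limma adjusted p = 0.519) and -0.95 for Plaur (limma adjusted p = 0.827). Plaur had already risen at 60 min, so its early mean in that fit holds risen values. The Thbd call was lost on leaving out any 1 of 8 of the 12 arrays, wild type 0, 15 or 30 min or knockout 0, 15, 30, 180 or 240 min, with differences of 1.03 to 1.29 and limma adjusted p of at most 0.1 over all 12. The Plaur call was lost on leaving out any array but wild type 30 or 120 min, with differences of -1.78 to -1.22 and limma adjusted p of at most 0.13.

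The other members did not pass this test. Serpinb2 rose by 4.42 in the wild type (SE 0.27) and 5.79 in the knockout (SE 0.27), and the difference of 1.38 had an SE of 0.39 (limma adjusted p = 0.159). F3 rose by 2.17 in the wild type and 1.51 in the knockout (difference -0.66, SE 0.39, limma adjusted p = 0.57). For Plat the changes were -0.36 in the wild type (SE 0.13, limma adjusted p = 0.0423) and 0.19 in the knockout (SE 0.13, limma adjusted p = 0.349), with a difference of 0.55 (SE 0.18, limma adjusted p = 0.25). Plau gave -0.06 (SE 0.58, limma adjusted p = 0.981). With time kept as a block in the same 12 arrays, 5 of the 6 members were called, with Serpinb2, Plat and F3 in addition (limma adjusted p = 0.0219, 0.0123 and 0.0404), beside 4.27% of all genes.

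**Figure D3:**
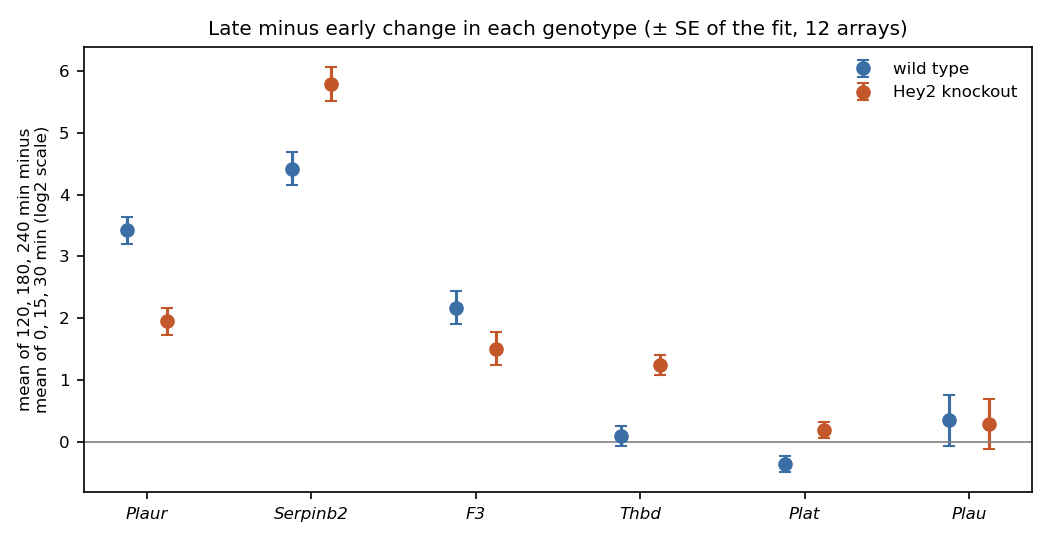
Mean of the 3 late arrays (120, 180, 240 min) minus mean of the 3 early arrays (0, 15, 30 min) on the log2 scale for each measured gene, wild type in blue and Hey2 knockout in orange, with the SE of the 12-array fit. Plaur has the larger value in the wild type (3.42 against 1.95) and Thbd in the knockout (1.24 against 0.09).

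Taking the genotypes at the early and late times separately, comparisons added after the data had been seen, showed where each member differed. Arrays of the same time were not paired in these comparisons, so change among the early or the late times enters the spread. Before 60 min Plaur, Serpinb2 and Thbd were higher and Plat lower in the knockout, 4 of 6 members beside 26.7% of all genes. At 120 to 240 min Serpinb2 and Thbd were higher, 2 of 6 beside 26.8% of all genes. Serpinb2 differed by 1.05 early (SE 0.27, limma adjusted p = 0.0113) and 2.43 late (SE 0.27, limma adjusted p = 2.09e-05). Its early value compares dim signals, with the wild type under the filter on all 3 early arrays and the knockout above it only at 30 min, and depends on the offset. Thbd differed by 3.48 early and 4.63 late (SE 0.16 each). Plat differed by -0.57 early (SE 0.13, limma adjusted p = 0.00493) and -0.03 late (limma adjusted p = 0.904). F3 gave 0.37 early and -0.29 late, neither called (limma adjusted p = 0.358 and 0.481).

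The profiles of the rising members resembled each other in part. Over 16 arrays, which share their time course and scaling, Plaur and Serpinb2 correlated at r = 0.85, Plaur and F3 at 0.75 and Serpinb2 and F3 at 0.47. Over the 12 arrays without 60 and 480 min these values were 0.89, 0.96 and 0.85. Those arrays are the early and late times between which these genes were found to rise, so high values there are no separate support. Within the wild type the values were 0.89, 0.80 and 0.48, and within the knockout 0.99, 0.67 and 0.56. In the knockout F3 was at 2031 at 60 min and 468 at 480 min. Serpinb2 was at 179 and 1020 there, and Plaur at 1126 and 1425. Thbd and Plau correlated at 0.81 over 16 arrays, but at 0.40 within the wild type and 0.26 within the knockout, where the gap between genotypes does not enter. Of all genes tested, the profile most like Plaur was that of Fosl1, an AP-1 subunit of the Fos family (r = 0.99 over 16 arrays, signal 20.9 to 3569), followed by the tubulin Tubb6 and the growth factor Hbegf (0.98 each). Serpinb2 was followed most closely by Sprr1a, a cornified envelope protein (0.98), Tpst2, a tyrosine sulfotransferase (0.96), and the collagenase Mmp13 (0.96). For F3 the nearest were the cytokine Il6 (0.96), the transcription factor Klf10 (0.95) and Cttnbp2nl (0.94). The nearest genes of Thbd were Ramp1, a receptor partner protein (0.98), the keratin Krt14 (0.98) and Exosc9, an exosome subunit (0.97). Within the 8 wild-type arrays, where Thbd was dim, their r with Thbd was -0.04, 0.62 and 0.16. Within the 8 knockout arrays their r with Thbd was 0.70, 0.92 and 0.76. Krt14 had a signal of 1.41 to 442. Plat was nearest to Taf11 and Ifngr1 (0.87 each) and Mex3d (0.86), and Plau to Blnk (0.88), Cdkn3 and Arhgap32 (0.87 each). Within the wild type these were 0.89, 0.76 and 0.71 for Plat and 0.57, 0.81 and 0.68 for Plau. Within the knockout they were 0.40, 0.69 and 0.74 for Plat and 0.84, 0.53 and 0.35 for Plau. Plau is dim throughout, and Blnk had a signal of 1.03 to 37.3.

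Other genes of fibrinolysis, coagulation and pericellular proteolysis were read as 4 lists of 73 genes, of which 69 had a probe set and 55 were tested. Between genotypes 10 were higher and 9 lower in the knockout, 34.5% of those tested beside 30.7% of all genes, with a median difference of 0.08 beside -0.02. Among the inhibitors, 4 of 18 tested were higher and 2 lower (33.3% called). Serpinf1 encodes the pigment epithelium-derived factor, a serpin without known protease targets. It had a signal of 0.719 to 29.1 in the wild type and 105 to 154 in the knockout (difference 2.89, SE 0.21, limma adjusted p = 3.04e-06). Part of its wild-type range lies under the filter, so the size of this difference depends on the offset. Serpinf1 is also among the adventitial fibroblast markers counted above as higher. Serpina3n, an inhibitor of serine proteases in mice, ran from 2.78 to 8.9 and from 23.9 to 50.2 (2.02, SE 0.22). All its wild-type values lay under the filter, so it entered the test through the knockout arrays alone and the size of its difference depends on the offset. Serpini1, neuroserpin, an inhibitor of tissue-type activator, ran from 10.3 to 27.2 and from 54.2 to 74.0 (1.59, SE 0.16). The Kunitz inhibitor Spint2 was also higher (1.02, SE 0.20), and the serpin Serpinb8 was lower (-0.66, SE 0.14).

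Among 9 tested matrix proteases, their inhibitors and substrates, 2 were higher and 2 lower (44.4% called, beside 30.7% of all genes). The stromelysin Mmp3, which can act downstream of plasmin, had a signal of 206 to 1482 in the wild type and 1619 to 2227 in the knockout (2.34, SE 0.26, limma adjusted p = 7.03e-05), while the gelatinase Mmp2 was lower (-0.47, SE 0.11). Of 17 receptors and cofactors, 1 was higher and 4 lower (29.4% called). The lower ones included Igf2r, a receptor that can bind plasminogen and the urokinase receptor (-1.12, SE 0.14), thrombospondin Thbs1 (-0.57, SE 0.12) and the fibronectin receptor subunit Itga5 (-0.53, SE 0.17). Of 11 proteases and zymogens, 3 were higher and 1 lower (36.4% called). Coagulation factor F5 differed by 0.97 (SE 0.27), with signals of 1.58 to 16.6 in the wild type and 15.3 to 36.9 in the knockout. The plasminogen relative Hgf differed by -1.01 (SE 0.27), with 10.2 to 62.2 in the wild type and 7.25 to 18.0 in the knockout. Each reached little above the filter of 16 in the dimmer genotype, so both differences depend on the offset and their calls carry little support.

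After PDGF-BB 5 of the 55 tested genes were called, all higher at 120 to 240 min than at 0 min, 9.09% beside 10.9% of all genes. They were Mmp13 (3.16, SE 0.79), Itga5 (2.84, SE 0.29), the metalloprotease inhibitor Timp1 (2.03, SE 0.53), the syndecan Sdc4 (1.02, SE 0.21) and Serpinb8 (0.93, SE 0.22), with limma adjusted p of 3.92e-04 for Itga5 and at most 0.0364 for the others. Without the 60 and 480 min arrays 8 of 53 were higher and 13 lower, 39.6% called beside 35.0% of all genes. In the test of the response between genotypes 2 of 53 were called (3.77%, beside 0.791% of all genes), Itga5 (-1.13, SE 0.20, limma adjusted p = 0.0191) and Timp1 (-1.01, SE 0.17, limma adjusted p = 0.0184), both with smaller rises in the knockout, the direction also found for Plaur. Itga5 had a wild-type signal of 182 at 0 min and 1680 at 240 min, against 167 and 768 in the knockout. Timp1 had 536 and 3804 in the wild type and 1478 and 4499 in the knockout.

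**Figure D4:**
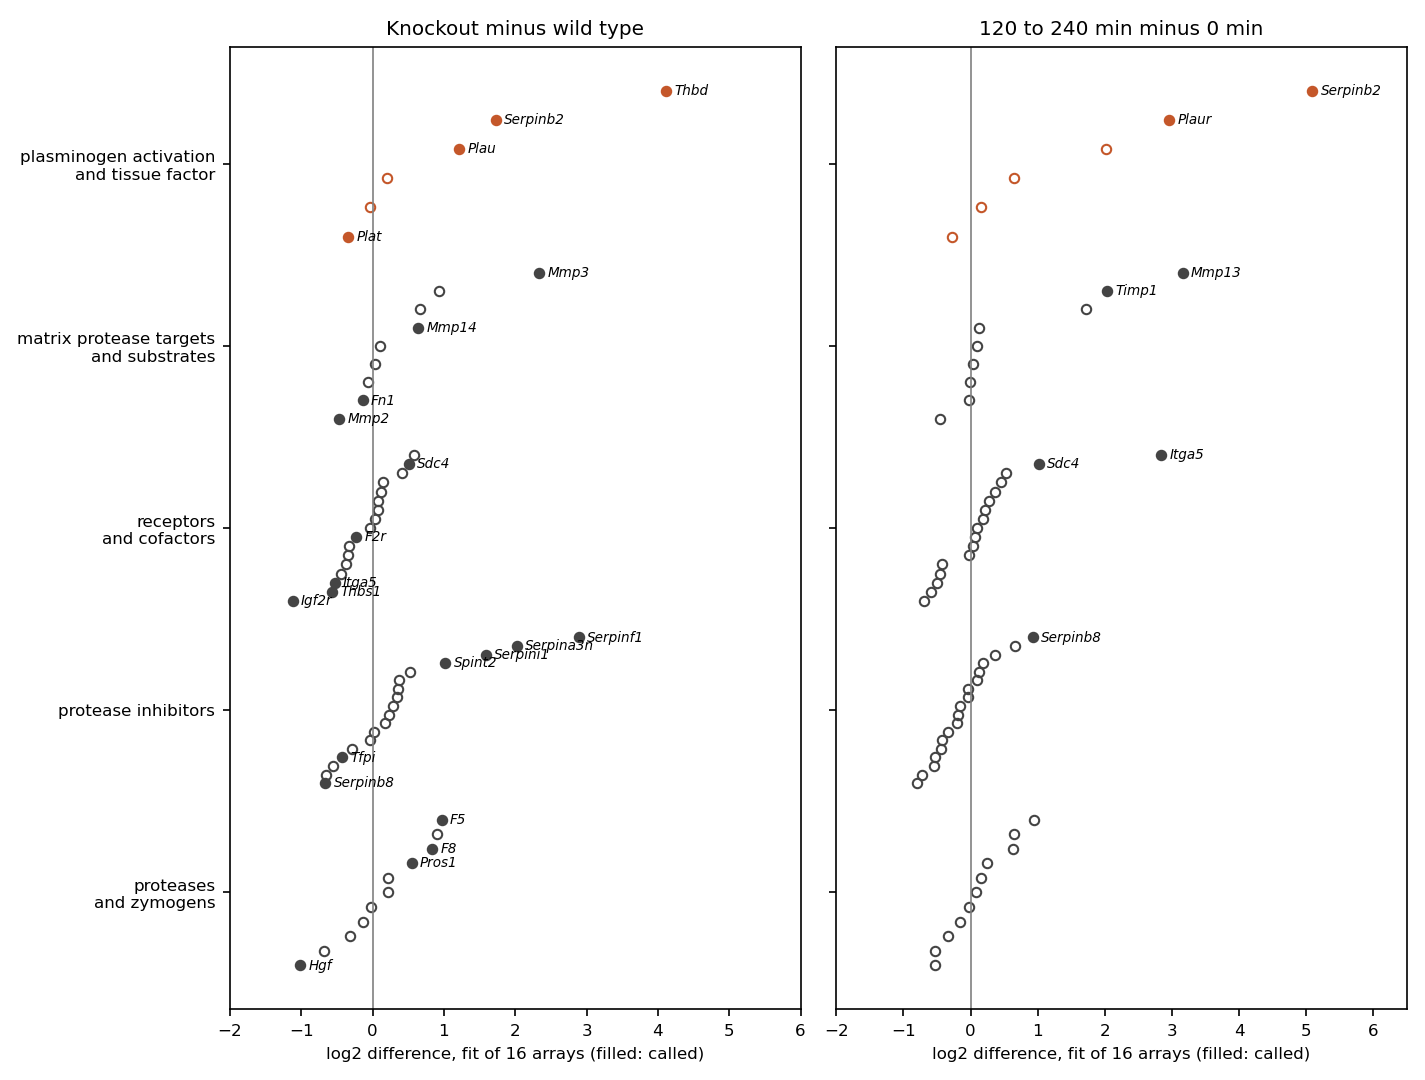
Fitted log2 differences over 16 arrays for the 6 measured genes (orange, top) and for the tested genes of 4 lists around them (grey), with knockout minus wild type on the left and 120 to 240 min minus 0 min on the right. Filled, named points were called at a limma adjusted p under 0.05, and on the left Thbd lies farthest to the right (4.11), on the right Serpinb2 (5.09).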

How the data were processed

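The authors deposited linear signal intensities, 1 per probe set and array, computed with MAS5 according to the submitters' processing notes, which name no version or scaling target. Genotype and time came from the sample titles. Of 45101 probe sets, 34945 had 1 gene symbol in the platform annotation, 932 had several and 9160 none. Arrays were quantile normalized. An offset of 4.856, the 20th percentile of all values, was added before taking log2, and probe sets with a signal over 16 (the 40th percentile) on 3 or more arrays were tested. The brightest tested probe set stood for a gene. Models were fitted with limma 3.58.1 (R 4.3.3), using moderated variances with a trend on intensity, and p-values were adjusted over all genes tested by the Benjamini-Hochberg method at 0.05. The genotype difference and the change to 120-240 min came from an additive fit of genotype and time as a factor (16 arrays, 7 residual degrees of freedom). The difference in response came from 4 groups of 3 arrays (8 residual degrees of freedom, 13913 genes). The same fit, without pairing by time, gave the genotype differences at the early and late times. The members, gene lists and tests were chosen with earlier results of these data known. Named besides the members are the 3 nearest profiles of each and, per comparison and direction, up to 6 called list genes with the largest differences. Precision is limited by 1 array per genotype and time. The fits were tested on simulated data. Alternatives changed the scaling, the offset, the filter, the choice of probe sets, the variance model, the time block, the baseline, the shape of the time course, the call threshold and the arrays included.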

Additional observations from a re-analysis of the deposited data

Results flagged for a closer look

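Of 6 members and 53 list genes tested, 4 responded differently to PDGF-BB in the genotypes by the limma test of the difference itself. In that test 0.791% of all genes were called. Thbd had the larger change in the knockout, by 1.15 (SE 0.22, adjusted p = 0.0297 by limma). Smaller changes in the knockout were those of Plaur (-1.46, SE 0.30, limma adjusted p = 0.0434), of the fibronectin receptor subunit Itga5 (-1.13, SE 0.20, limma adjusted p = 0.0191) and of the metalloprotease inhibitor Timp1 (-1.01, SE 0.17, limma adjusted p = 0.0184). The 60 and 480 min arrays were also added as labelled, as early and late. In that fit limma called 0 genes (883 at an unadjusted p under 0.05), so each of these 4 calls was lost. Its early arrays include Plaur values already risen, 1551 on the array labelled wild type 60 min and 1126 in knockout 60 min.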

How the results depend on the processing

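Counts of members called and of all genes called are given here as pairs. Between genotypes 4 members and 4393 genes were called. The genes came to 2156 with the scaling as deposited (87.8% of them higher, against 53.9%), 7308 when every probe set was tested and 1016 at 2-fold or more, and the members to 2 at the late times only. Over the time points left out in turn, 2 to 4 members and 3584 to 4918 genes were called. For the change to 120-240 min (2 and 1554), the genes came to 281 with the scaling as deposited, 2372 with every probe set and 4871 without 60 and 480 min, and a baseline of 0, 15 and 30 min gave 4 members and 4189 genes. Over the arrays left out in turn these were 0 to 2 members (2 at an unadjusted limma p under 0.05 without wild type 0 min) and 74 to 1155 genes.

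For the difference in response (2 and 110), limma called 0 members and 1 gene with the scaling as deposited (3 and 214 at an unadjusted p under 0.05), 0 and 13 with no intensity trend, 0 and 0 with the 60 and 480 min arrays as labelled (2 and 883 unadjusted) and 0 and 1 with the spline (1 and 1577 unadjusted). It called 1 member and 89 genes with no filter, 1 and 105 with every probe set, 3 and 121 with the offset multiplied by 3, where Serpinb2 was added (1.76, limma adjusted p = 0.0192), and 5 and 594 with time as a block. Over the arrays left out in turn it called 0 to 2 members and 18 to 341 genes. The causes were not tested.

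Signs turned for values that were not called or lost their call. With the scaling as deposited the genotype difference was 0.00 for Plat and 0.28 for F3, and Plau differed in response by 0.02. F3 differed by 0.04 without 60 and 480 min, by 0.37 at the early times and by -0.33 to 0.31 over the time points left out. Plaur differed by -0.41 at the late times. Plau differed in response by 0.35 with the spline and by -0.39 to 0.19 over the arrays left out, and its change to 120-240 min was -0.34 to 0.63 over the arrays left out. The labels number no replicates, and arrays of the same time were paired through time as a block in the genotype comparison over all times. The genotype call of Serpinb2 was also lost with no time block (limma adjusted p = 0.321). With the filter doubled Plau was not tested. Dim signals limit Plau throughout and Serpinb2 before 60 min.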
